A study of Mus musculus with 28 samples.

Results

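The livers described here came from 3 male B6C3F1 mice, labelled 42 days old, that had been given drinking water alone for about 4 weeks and had received no phenobarbital. The labels do not say whether that age is at the start or the end of these weeks. The tissue came from paraffin blocks of formalin-fixed liver that were 16 years old, a kind of storage in which RNA becomes cross-linked and fragmented. Total RNA of whole liver was amplified to cDNA, labelled with Cy3 and hybridised singly to Agilent mouse expression arrays. Each liver was run with a cDNA amount labelled 1.5X and again with one labelled 1X, which gave 6 arrays of the 28 in the series. The members were chosen by their titles as untreated livers on 1-colour arrays, 3 at each input. Both inputs of a mouse were made from the same liver, so the arrays hold 3 biological samples and not 6. The labels do not state the mass that 1X stands for. The remaining arrays carried phenobarbital-exposed liver or both RNAs together, and no exposure comparison was made.

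The liver is built mostly of hepatocytes, which secrete most plasma proteins, dispose of nitrogen through the urea cycle, make bile acids, and oxidise and conjugate drugs. Hepatocytes share these tasks along the lobule, from the periportal zone where blood enters to the pericentral zone where it leaves. Kupffer cells, sinusoidal endothelium, stellate cells and bile duct cells make up most of the rest. In rodents, growth hormone pulses make many hepatocyte genes differ between males and females, and the major urinary proteins (Mup genes) are a well known male-biased family.

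A spot was read as detected when the scanner software marked it well above background. Signals were expressed as scaled log2 signal, the log2 of the processed signal minus the 75th percentile of the 15658 probes that were detected on all 6 arrays, so 0 stands for a probe brighter than most detected ones. A gene was represented by its brightest probe. Brightness depends on each probe's sequence, so an order of genes by signal describes the arrays and is no order of mRNA amounts. Of 55681 probes, 27235 carried a current symbol, for 20660 genes.

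Detection differed between inputs. At 1.5X input, 34.8%, 33.3% and 32.0% of the probes of mice 1, 2 and 3 were well above background, against 51.0%, 44.2% and 51.9% at 1X. The share was lower at 1.5X in 3 of 3 mice, with no overlap, with a mean difference of -15.6 ± 4.56 percentage points (SD, n = 3). The exact two-sided sign-flip test gave p = 0.25, the smallest that 3 mice allow. The negative control spots had median raw signals of 216 to 277 at 1.5X and of 66 to 80 at 1X. The 1.5X arrays lay on one slide scanned in one session, and the 1X arrays on another slide scanned in another session, so input, slide and scan cannot be told apart. Each mouse also kept its place on both slides, so mouse and array position cannot be told apart. No spot was saturated.

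Of 37061 genes and transcripts, 12331 (33.3%) were well above background on all 6 arrays and 13997 (37.8%) on none. Among the 20649 with a symbol these shares were 39.6% and 35.6%. The markers of liver were among the brightest genes. Albumin (Alb, chromosome 5), the main plasma protein, had scaled log2 signals of 6.71, 6.65 and 6.63 at 1.5X and of 6.73, 7.01 and 6.50 at 1X in mice 1, 2 and 3. Apoa1 (chromosome 9), the main protein of high-density lipoprotein, ranged from 4.85 to 5.24, and Ttr (chromosome 18), the thyroxine carrier transthyretin, from 4.83 to 5.49. All 3 were detected on every array, lay between percentiles 99.2 and 99.7 of all genes on each, and overlapped between inputs.

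The hepatocyte programme was detected almost whole. Of 502 distinct genes in 16 lists of hepatocyte functions, 447 (89.0%) were well above background on all 6 arrays and 19 on none, and their median signal lay at percentile 92.4 of all genes. Every measured member was detected on all 6 arrays for secreted plasma proteins (45 of 45), coagulation and complement (37 of 37), the urea cycle and amino acid breakdown (52 of 52) and periportal hepatocytes (27 of 27). The least complete hepatocyte lists were liver transcription factors and nuclear receptors (41 of 54) and fatty acid oxidation with PPAR alpha targets (33 of 42).

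**Figure D1:**
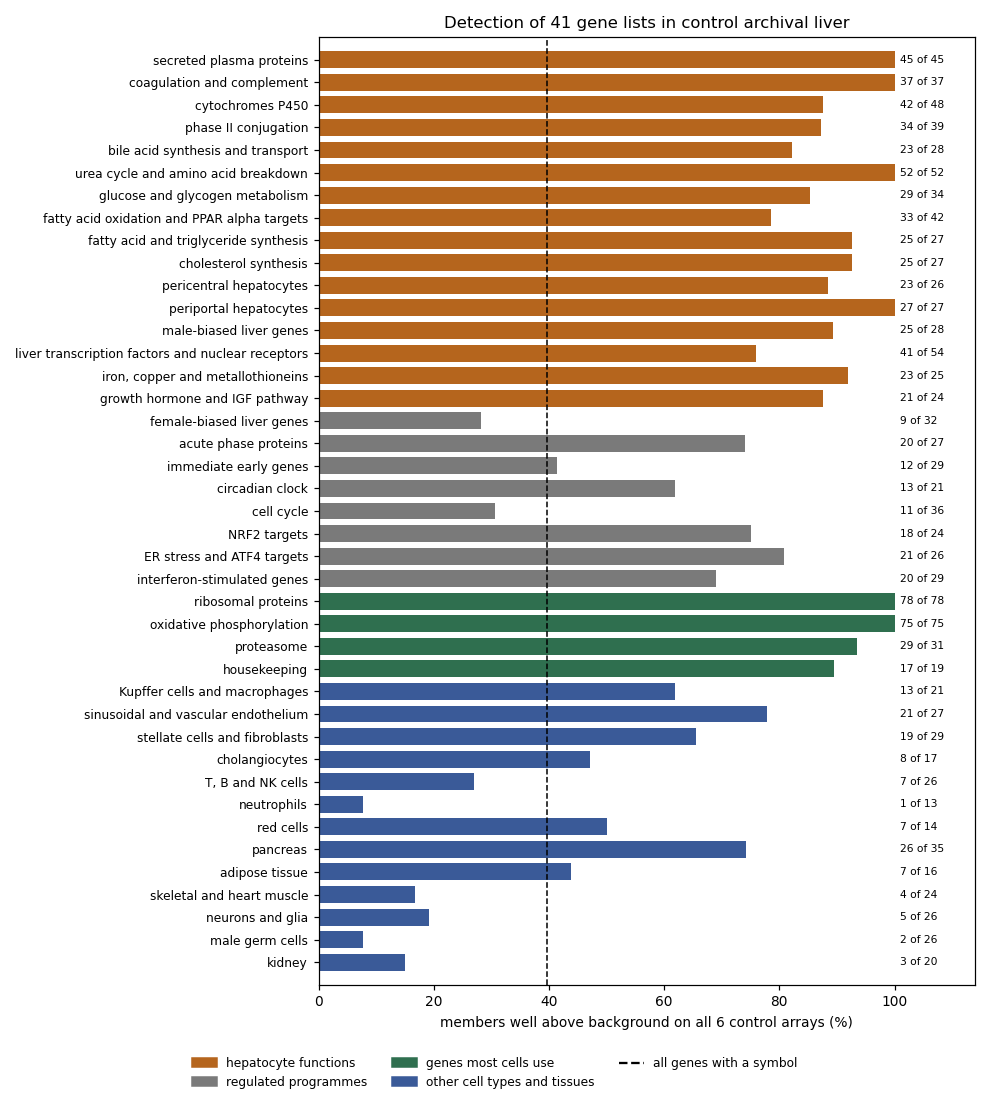
Share of the measured members of each of 41 gene lists that were well above background on all 6 control arrays; the counts stand at the right and the dashed line marks the 39.6% of all genes with a symbol. Lists of hepatocyte functions reach 76% to 100%, while muscle, neurons, germ cells, neutrophils and kidney stay below 20%.

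Within the list of secreted plasma proteins, the brightest were Serpina1e, an alpha-1-antitrypsin, at a mean scaled log2 signal of 7.28, Trf, the iron carrier transferrin, at 6.83, and Alb at 6.70. Fgb, the fibrinogen beta chain, averaged 6.73. Fga, the alpha chain, averaged 5.82 at its brightest probe and -0.03 at its other probe, although both were detected on all 6 arrays. In amino acid metabolism, Ass1, the urea cycle enzyme that makes argininosuccinate, averaged 5.46. Cps1, the enzyme that brings ammonia into the cycle, had 3.82, 3.64 and 3.22 at 1.5X and 3.52, 3.50 and 2.98 at 1X. These genes were bright in every mouse.

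Of 48 cytochromes P450 measured, 42 were detected on all 6 arrays, led by Cyp2e1 at 5.21, Cyp2d10 at 4.80 and Cyp2a12 at 3.92. Cyp7a1, the rate-limiting enzyme of bile acid synthesis, was detected on all 6 arrays but was dim, at -3.77, -3.63 and -2.89 at 1.5X and -4.54, -3.31 and -3.64 at 1X. Slc10a1, which takes bile acids up from blood, was the brightest hepatocyte gene at 7.65, yet its other probe averaged 1.56. Of the conjugating enzymes, 34 of 39 were detected on all 6 arrays, with Gstp1 the brightest at 5.51. Fabp1, the liver fatty acid carrier, averaged 4.67, and Ebp, a late enzyme of cholesterol synthesis, 3.92.

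Both zones of the lobule were represented. Pericentral genes were detected on all 6 arrays in 23 of 26 cases, among them Cyp2e1 and Glul, the pericentral glutamine synthetase, which averaged -0.02. Of the periportal list, Pigr, the receptor that carries IgA into bile, averaged 5.46, and Hal, which breaks down histidine, 1.09. The other of the 2 Pigr probes was dimmer by 4.64 log2 units.

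The lists that separate the sexes differed in detection. Of 28 male-biased genes, 25 were well above background on all 6 arrays and 1 on none, with a median percentile of 95.0. Of 32 female-biased genes, 9 were detected on all 6 arrays and 17 on none, with a median percentile of 36.2. Of all genes with a symbol, 39.6% were detected on all 6 arrays and 35.6% on none. Cyp4a12a, a male-typical P450, had 3.96, 3.96 and 3.88 at 1.5X and 3.73, 4.08 and 3.69 at 1X. Cyp2b9, Cyp3a44 and Sult2a1, which are typical of female liver, were well above background on none of the 6 arrays. The 9 female-biased genes detected on all 6 arrays included Cyp2a4, Acot3 and Prlr, at percentiles 90.4, 94.9 and 78.7 by their brightest probes. Their other probes averaged -4.99, -6.34 and -5.62 and were well above background on 3, 0 and 1 arrays. At the brightest probes, 1.5X minus 1X was 0.36, -2.40 and 1.23 log2 units. The animals were all male, and no female liver was available for comparison.

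Detection of other programmes is set beside the 39.6% of all genes with a symbol that were detected on all 6 arrays and the 35.6% detected on none. Ribosomal proteins (78 of 78) and oxidative phosphorylation (75 of 75) were detected on all 6 arrays, as were 17 of 19 housekeeping genes, led by Actb at 5.26 and Gapdh at 4.18. Of 36 cell cycle genes, 11 were detected on all 6 arrays and 16 on none, and those on none included the mitotic kinases Aurka, Aurkb and Plk1. Of 29 immediate early genes, 12 were detected on all 6 and 9 on none, including Fos and Egr1, shares near those of all genes. The acute phase list had 20 of 27 members detected on all 6 arrays and the interferon-stimulated list 20 of 29.

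The 19 hepatocyte genes that were well above background on none of the 6 arrays each had a single probe. They included the P450s Cyp2b10 and Cyp4b1, the bile acid reductase Akr1d1, the glycolytic regulator Pfkfb1, the fatty acid genes Acadl, Acot2, Acot4, Cd36 and Fgf21, the pericentral genes Lgr5 and Slc22a3, the male-biased Moxd1, the regulators Hnf4g, Nfe2l2, Cux2, Zhx2 and Tox, and Smad7. Several of these are known to be expressed in mouse liver, such as Acadl, an acyl-CoA dehydrogenase, and Nfe2l2, the regulator of the oxidative stress response. Nfe2l2 passed the scanner's weaker criterion, positive and significant over background, on all 6 arrays, Akr1d1 on 5 and Acadl on 3, whereas Cyp4b1, Fgf21 and Lgr5 passed it on 0. Cux2, Tox and Cd36 also stand in the female-biased list. Cyp2b10, a P450 known for its induction by phenobarbital, had scaled log2 signals of -6.73, -6.47 and -6.39 at 1.5X and of -5.93, -6.78 and -5.95 at 1X. With 1 probe each, absence of signal cannot be told apart from a failed probe.

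Control RNA was also hybridised in the Cy3 channel of 2-colour arrays that carried phenobarbital RNA in the Cy5 channel, and 7 such arrays had labels that did not conflict. Of the 12331 genes detected on all 6 control arrays, 96.5% to 99.6% were well above background in the 4 channels at 1.5X and 78.4% to 90.4% in the 3 at 1X. Of the 13997 detected on none, the shares were 0.286% to 0.707% at 1.5X and 0.0143% to 0.364% at 1X. On this format the 1.5X channels thus had the higher detection, at 38.6% to 42.8% of probes against 21.9% to 27.3% at 1X, the opposite order to that of the 1-colour arrays. In both formats the arrays with the higher detection were those of the first of 2 scan sessions, and the part of the session was not tested. Cyp2b10 was well above background in 4 of the 7 channels, and 17 of the other 18 missing hepatocyte genes in none. Hnf4g was the exception, in 1 channel. A part of Cy5 signal in these Cy3 readings was not tested.

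The brightest probes of the arrays mostly belonged to no hepatocyte list, and 3 of the 100 brightest did. Mup19, of the male-biased Mup family, stood at rank 64 with 7.18 and was not counted among the 3. The 20 genes with the highest mean signal were, in order, Ulk3, Sp110, Glrx2, Rn28s1, Pak4, Rnu1b6, Spag7, Ms4a4c, Cep170b, Sgsh, Zcchc9, Timmdc1, Ubtf, Madd, Rn4.5s, Kctd14, Septin3, Arl6ip6, Zfp457 and Slc10a1, with means of 8.15 to 7.65. Rn28s1 is the 28S ribosomal RNA, Rnu1b6 a U1 spliceosomal RNA and Rn4.5s a small noncoding RNA, and 1 of the 20, Slc10a1, was in a hepatocyte list. Alb stood at rank 111 of all genes, Ttr at 224 and Apoa1 at 249. The signals were steady, with ranges over the 6 arrays of 0.37 to 1.01.

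Other probes of these genes did not give the same reading. Ulk3, a kinase linked to autophagy, averaged 8.15 at its brightest probe and -3.25 at its other probe. Ms4a4c, a membrane protein of blood cells, averaged 7.78, while its next brightest probe averaged -6.31 and its other probes were well above background on 0 arrays. Madd at 7.73 and Septin3 at 7.68, both known from neurons, likewise had a second probe with no array well above background. Of the 100 brightest probes, 75 had a symbol and 50 of those had another probe for the same gene. The gap to the next probe exceeded 4 log2 units in 47 of the 50, with a median of 12.5. Among all 3067 genes with a symbol and several probes that were detected on all 6 arrays, 658 (21.5%) had such a gap and the median was 2.24. In the hepatocyte lists it was 18 of 127, with a median of 1.93.

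**Figure D2:**
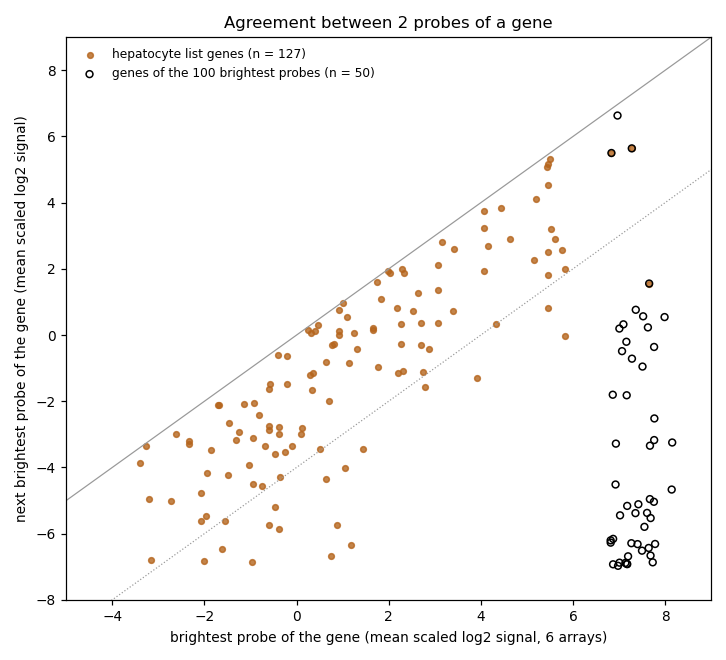
Mean scaled log2 signal over the 6 control arrays of the brightest probe (x axis) and the next brightest probe (y axis) of a gene, for 127 hepatocyte genes and 50 genes of the 100 brightest probes. The solid line marks equal signal and the dotted line a gap of 4 log2 units; all but 3 of the open circles lie below the dotted line.

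All 100 of the brightest probes were also well above background in the 7 control channels of the 2-colour arrays, and 97 belonged to the probe series with names that start with A_55, which supplied 55.0% of the probes that stood for a detected gene with a symbol. Probe sequences were not in the tables used here, so matches of these probes to other RNAs were not examined. The same limit bears on 2 cell type markers. Itgam, a macrophage and neutrophil integrin, averaged 6.92 at its brightest probe and -4.52 at the next. Snap25, a synaptic protein, averaged 6.82 at its single probe. Of the 26 genes of the neuron list, 10, such as Rbfox3 and Gad1, were detected on no array, near the 35.6% of all genes with a symbol. On all 6 arrays it was 5 of the 26 (19.2%), beside 39.6% of all genes with a symbol.

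Markers of other liver cell types were detected to differing degrees, beside 39.6% of all genes with a symbol. Endothelial genes were detected on all 6 arrays in 21 of 27 cases, with Stab2, a scavenger receptor of sinusoidal endothelium, averaging 0.80. Of 29 stellate cell and fibroblast genes, 19 were detected on all 6, with the collagen Col3a1 at 2.94 and Sparc at 3.96. Of 21 Kupffer cell and macrophage genes it was 13, with Clec4f, which marks mouse Kupffer cells, between -0.44 and 0.02 on the 6 arrays. Of 17 bile duct genes it was 8 (47.1%), near the share over all genes, and Krt19 averaged -1.16. Few genes of muscle (4 of 24), kidney (3 of 20), male germ cells (2 of 26) and neutrophils (1 of 13) were detected on all 6 arrays. Of 35 pancreas genes 26 were detected on all 6, and of 16 adipose tissue genes 7.

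Replicate arrays of different mice at one input were alike. Across the 12331 detected genes, signals of different mice at the same input correlated at Pearson r of 0.967 to 0.982, and those of the same mouse at different inputs at 0.895 to 0.921. These are descriptions across genes, which are not independent replicates. The range of a gene's signal over the 6 arrays had a median of 0.99 log2 units, against 0.39 over the 3 mice at 1.5X and 0.44 over the 3 mice at 1X. Since a range over 6 arrays is never below that over 3 of them, these medians are not directly comparable. A range under 1 over the 6 arrays was found for 50.7% of the genes, for 88.5% of ribosomal protein genes and for 86.7% of secreted plasma proteins. The steadiest of the 1000 brightest genes were Ap2m1, a clathrin adaptor subunit, with a range of 0.14, the ribosomal proteins Rps27 (0.14) and Rpsa (0.15), the nucleosome-binding protein Hmgn1 (0.15) and the chaperone partner Sdf2l1 (0.17).

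The mice differed most in genes of the exocrine pancreas. A limma F-test among the 3 mice, with input as a covariate and Benjamini-Hochberg adjustment, called 127 of 12331 genes (1.03%) at an adjusted p under 0.05, and 2555 had an unadjusted p under 0.05. Of the 127, 99 had a symbol and 24 were in the pancreas list, of whose 26 tested members 24 were thus called. Mouse 1 was lowest in 91 of the 127 genes and mouse 3 highest in 105. The test compared livers through 2 arrays of each, so its p-values measure array spread within a liver and not variation among animals.

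Pla2g1b, a secreted phospholipase of pancreatic juice, had scaled log2 signals of -0.15, 2.39 and 3.07 at 1.5X in mice 1, 2 and 3, and of -1.08, 1.81 and 2.27 at 1X. Mouse 1 was below both other mice at each input, and the mouse means spanned 3.29 log2 units (9.77-fold, adjusted p = 0.00828 by limma). Pnlip, pancreatic lipase, had 1.97, 4.24 and 4.88 at 1.5X and 1.74, 4.39 and 4.65 at 1X, a span of 2.91 (adjusted p = 0.00834 by limma). The arrays of mouse 1 stood apart from the other 4 in both genes.

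Clps, the cofactor of pancreatic lipase, was among the brightest, at 4.32, 6.04 and 6.30 at 1.5X and 4.23, 6.35 and 6.30 at 1X, so it was bright in mouse 1 too. Pnliprp1, the trypsinogen-like 2210010C04Rik, Gp2 of zymogen granules and the ribonuclease Rnase1 followed the same order, with spans of 3.24, 2.99, 2.91 and 2.88. Klk1, a tissue kallikrein of pancreas and salivary gland, and Tff2, a trefoil peptide, were not in the list and spanned 3.03 and 3.24, with mouse 1 lowest. In 24 of the 26 tested pancreas genes both arrays of mouse 1 lay below the other 4 arrays. The median over the 26 was 1.65 in mouse 1, 4.14 in mouse 2 and 4.60 in mouse 3, and the median span was 2.58, against 0.35 over all genes tested. The 2 that were not called were Amy2a5, an amylase, with an adjusted p of 0.0954, and Spink1, a trypsin inhibitor, with 0.0773 (both by limma).

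Genes of the pancreatic islets were in the list but were not tested, since none was well above background on all 6 arrays. Ins1, an insulin gene, was not well above background in mouse 1, at -6.43 at 1.5X and -4.95 at 1X. In mice 2 and 3 it had 1.12 and 2.80 at 1.5X and 0.80 and 2.54 at 1X, each well above background. Ins2, the other insulin gene, had -4.47, -0.45 and 1.43 at 1.5X and -0.97, -0.02 and 1.68 at 1X. Iapp, which beta cells secrete with insulin, was well above background in mouse 3 alone, at both inputs. Reg2 was detected on no array. In whole tissue, more cells of a type and more RNA per cell cannot be told apart.

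The calls of the pancreas genes changed with the mice, the filter and the model. Without mouse 1, 1 of the 26 was called, without mouse 2 all 26 and without mouse 3 19. With no filter on dim probes, or with input left out of the model, none of the 26 and none of all genes was called, although 3289 and 427 genes had an unadjusted p under 0.05.

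**Figure D3:**
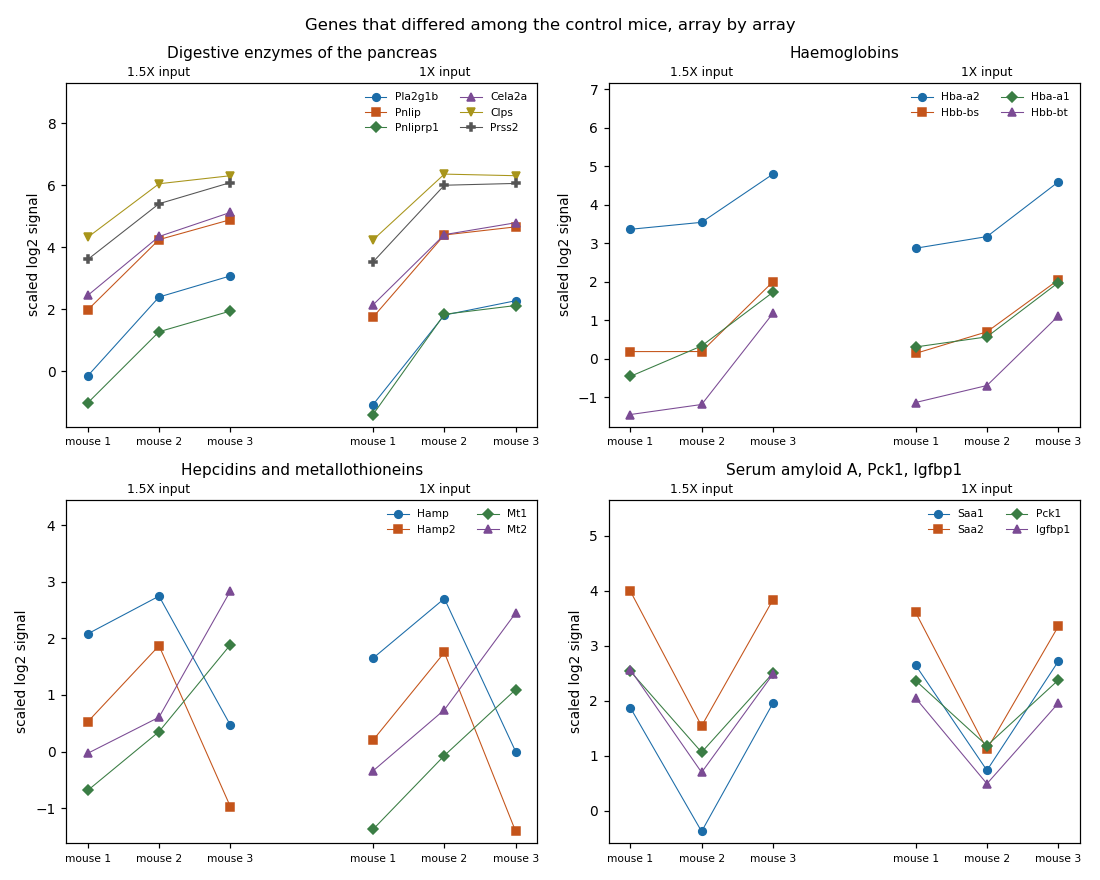
Scaled log2 signal (y axis) of 18 genes that differed among the 3 control mice, on each of the 6 arrays; lines join the 3 mice at one input and mark no order among them. Pancreatic enzymes are lowest in mouse 1 at both inputs, haemoglobins highest in mouse 3, hepcidins lowest in mouse 3, and Saa1, Saa2, Pck1 and Igfbp1 lowest in mouse 2.

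Haemoglobin genes differed too. Hba-a2, an adult alpha globin, had 3.37, 3.55 and 4.80 at 1.5X and 2.87, 3.18 and 4.60 at 1X in mice 1, 2 and 3, with an adjusted p of 0.0268 by limma. Hbb-bs, a beta globin, had 0.19, 0.19 and 2.00 at 1.5X and 0.14, 0.70 and 2.05 at 1X. Mouse 3 was highest at both inputs in all 5 haemoglobin genes called of the 7 red cell genes tested, with spans of 1.58 to 2.44. Globin copies are nearly identical, so their probes may read each other. Alas2, the haem-forming enzyme of red cell precursors, ranged from 1.01 to 1.31 over the 6 arrays and was not called. Without mouse 3 none of the 5 was called.

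Hepatocyte genes that respond to iron, metals or inflammation also differed among the mice. Hamp, the iron hormone hepcidin, had 2.08, 2.74 and 0.47 at 1.5X and 1.65, 2.70 and 0.00 at 1X. Hamp2, its neighbouring copy, had 0.53, 1.87 and -0.97 at 1.5X and 0.20, 1.75 and -1.41 at 1X. Both were highest in mouse 2 and lowest in mouse 3, with spans of 2.49 and 3.00 and adjusted p of 0.0123 and 0.00828 by limma. Whether the Hamp and Hamp2 probes read each other's transcripts was not tested.

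The sequences before the starts of both hepcidin genes are shown because the readings of both ranked the mice in the same order. They are the 250 bases upstream of the RefSeq start on GRCm38.p6, both on the minus strand, Hamp at chr7:30944030-30944279 and Hamp2 at chr7:30924182-30924431. Capitals mark matches, on either strand, to GGCGCC, a core bound by SMAD proteins, and to TTCNNNGAA, a core bound by STAT proteins. Both motifs were chosen after the values were seen.
Hamp: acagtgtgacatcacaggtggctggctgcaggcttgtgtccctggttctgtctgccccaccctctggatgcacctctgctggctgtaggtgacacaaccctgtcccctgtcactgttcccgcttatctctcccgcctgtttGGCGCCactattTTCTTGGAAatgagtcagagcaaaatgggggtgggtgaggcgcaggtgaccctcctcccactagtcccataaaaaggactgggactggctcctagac
Hamp2: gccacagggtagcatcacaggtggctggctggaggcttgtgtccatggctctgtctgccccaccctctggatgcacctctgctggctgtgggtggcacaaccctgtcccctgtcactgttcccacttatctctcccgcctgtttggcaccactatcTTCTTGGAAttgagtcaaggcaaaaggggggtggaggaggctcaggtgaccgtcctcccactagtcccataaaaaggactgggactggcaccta
The windows were identical at 227 of 247 aligned bases (91.9%). TTCNNNGAA occurred once in each, and GGCGCC once in Hamp and in no place in Hamp2. Of 32851 promoter windows of the same length, 9.59% held GGCGCC and 7.02% held TTCNNNGAA. A match describes the letters and no binding.

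Mt1 and Mt2, the metallothioneins that bind zinc and copper, ran the other way from the hepcidins in mouse 3. Mt2 had -0.03, 0.61 and 2.84 at 1.5X and -0.34, 0.74 and 2.45 at 1X, a span of 2.83 (adjusted p = 0.00979 by limma). Mt1 had -0.68, 0.35 and 1.89 at 1.5X and -1.37, -0.07 and 1.10 at 1X, a span of 2.52. Mouse 3 was highest and mouse 1 lowest at both inputs. Of the 23 tested genes of iron, copper and metallothioneins, Hamp, Hamp2, Mt1 and Mt2 were the 4 called. Without mouse 3, the adjusted p was 0.260 for Hamp, 0.0594 for Hamp2, 0.114 for Mt1 and 0.266 for Mt2 (limma).

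Mouse 2 was lowest in a further set. Saa2, a serum amyloid A of the acute phase, had 4.00, 1.54 and 3.84 at 1.5X and 3.61, 1.12 and 3.36 at 1X, a span of 2.47 (adjusted p = 0.00828 by limma). Saa1 spanned 2.16. Igfbp1, which binds insulin-like growth factors and rises in fasting, had 2.57, 0.70 and 2.49 at 1.5X and 2.05, 0.49 and 1.96 at 1X. Pck1, the gluconeogenic enzyme phosphoenolpyruvate carboxykinase, had 2.54, 1.07 and 2.50 at 1.5X and 2.37, 1.19 and 2.38 at 1X. Mouse 2 lay below both other mice at each input in all of these genes. The acute phase list had 4 of 20 tested members called, Saa1, Saa2, Lcn2 and Hamp, and the immediate early list 3 of 12, Junb, Dusp1 and Gadd45g, all 3 lowest in mouse 2. Without mouse 2, Saa1, Saa2, Igfbp1 and Pck1 had adjusted p of 0.353 to 0.957 (limma). Lcn2, Junb, Dusp1 and Gadd45g also lost their calls without mouse 2, with adjusted p of 0.0960 to 0.224 by limma. Without mouse 3, Pck1, Lcn2, Dusp1 and Gadd45g had adjusted p of 0.0780 to 0.109 (limma).

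None of the 45 secreted plasma proteins, 42 P450s, 34 conjugating enzymes, 52 urea cycle and amino acid genes, 78 ribosomal proteins or 75 oxidative phosphorylation genes tested was called among the mice. Those counts are to be read against 1.03% of all genes. Cyp1a1, a P450 that was not in the list, was called. Its means were -2.90, -1.92 and -1.24 in mice 1, 2 and 3 (adjusted p = 0.0449 by limma). The bile duct list had 0 of 8 members called; its summed signal, in log2 units, was 1.71, 2.03 and 2.38 at 1.5X and 1.26, 1.62 and 1.97 at 1X in mice 1, 2 and 3. The summed signal of the 35 pancreas genes was 7.70, 9.23 and 9.71 at 1.5X and 7.50, 9.51 and 9.60 at 1X. Mouse 1 was lowest in both sums. Their part in the other differences was not tested.

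The inputs differed in many more genes. In the limma fit with mouse as a block, 6120 of 12331 genes (49.6%) passed an adjusted p under 0.05, of which 3556 (28.8% of all tested) were higher at 1.5X and 2564 (20.8%) lower. With arrays scaled by the 75th percentile of all probes the split was 6320 higher and 1968 lower, and with no scaling 6921 and 1563. The median difference over all genes was 0.15 log2 units in the main scaling, 0.44 with all probes and 0.59 with no scaling, and values here are to be read relative to that shift. Among genes detected on all 3 arrays of at least 1 input, the split turned to 3125 higher and 6072 lower. The differences carry the slide and the scan session as well as the amount of cDNA.

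Large differences ran almost one way. Among the genes that passed the input test, a drop of more than 2 log2 units at 1.5X was found in 624 and a rise of that size in 9. Of the 624, 202 (32.4%) had a symbol and 221 (35.4%) were genomic intervals of noncoding transcription, against 66.3% and 11.96% of all genes tested. By the symbols as listed, 3 were in hepatocyte lists, against 443 of the 12331 genes tested. Older symbols were not translated for these counts, so 443 is below the 447 given above.

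The largest drop with a symbol was that of Mup6. Its probe had -2.68, -3.14 and -3.08 at 1.5X and 3.12, 2.73 and 2.69 at 1X in mice 1, 2 and 3, a difference of -5.81 ± 0.12 (SE) log2 units (adjusted p = 0.000129 by limma). Mup4 had -2.95, -3.48 and -3.48 at 1.5X and 1.79, 1.13 and 1.20 at 1X, a difference of -4.68. The other Mup4 probe was well above background on 0 arrays, with means of -6.41 at 1.5X and -7.31 at 1X. Mup5 differed by -1.71. The other Mup probes detected on all 6 arrays differed by -0.61 to 0.68: Mup3 averaged 5.14 at 1.5X and 5.74 at 1X, Mup2 6.46 at 1.5X and 6.85 at 1X, Mup19 averaged 7.15 at 1.5X and 7.22 at 1X, Mup21 4.76 at 1.5X and 4.75 at 1X, and Mup17 4.96 at 1.5X and 4.28 at 1X. Mup genes are near-identical copies, so which transcript a probe read is uncertain. Krtap10-4, a keratin-associated protein, Cbln2, a synaptic cerebellin, and Aanat, an enzyme of melatonin synthesis, fell by 4.78, 4.60 and 4.37.

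**Figure D4:**
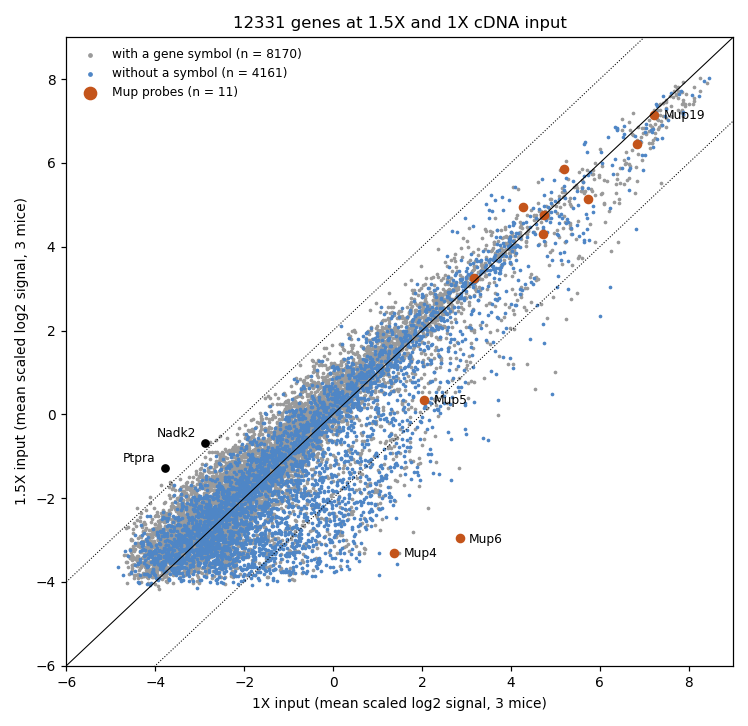
Mean scaled log2 signal of 12331 genes over 3 mice at 1.5X input (y axis) and at 1X input (x axis); the solid line marks equal signal and the dotted lines differences of 2 log2 units. Most genes lie near the line, and 624 of those that passed the input test lie below the lower dotted line. Of the 11 Mup probes, Mup6 and Mup4 lie far below the lower dotted line.

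The largest rises were smaller and involved dim genes. Ptpra, a receptor tyrosine phosphatase, had -1.58, -1.07 and -1.22 at 1.5X and -3.65, -4.13 and -3.59 at 1X, a difference of 2.50 ± 0.21 (SE) log2 units (adjusted p = 0.000619 by limma). Nadk2, a mitochondrial NAD kinase, rose by 2.19, Rpl7l1, a relative of a ribosomal protein, by 2.18, Coq2, of coenzyme Q synthesis, by 2.17 and Snrpd1, a core protein of spliceosomal particles, by 2.16. Each was higher at 1.5X in all 3 mice.

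Hepatocyte lists had more members called higher than lower at 1.5X. For P450s it was 17 higher and 1 lower of 42, for fatty acid oxidation 17 and 1 of 33, for cholesterol synthesis 12 and 0 of 25, and for transcription factors 20 and 4 of 41, beside 28.8% and 20.8% of all genes. Cyp3a11, a major drug-metabolising P450, had 4.06, 3.99 and 3.77 at 1.5X and 2.52, 2.55 and 2.00 at 1X. It differed by 1.58 at this brightest of its probes but by 0.15 with the median probe of each gene, where its adjusted p was 0.424 by limma. For genes with an even number of probes, the dimmer of the middle pair served as the median probe. Hnf4a, a master regulator of hepatocytes, rose by 1.32. For oxidative phosphorylation it was 33 higher and 0 lower of 75. The median difference was 0.30 for P450s and for oxidative phosphorylation, against 0.15 over all genes. After normexp and quantile normalization the 5 lists had medians of 0.28 to 0.47, against 0.20 over all genes. Secreted plasma proteins had 10 higher and 3 lower of 45 and a median difference of 0.10, and after normexp and quantile normalization 22 higher and 4 lower and a median of 0.28. The difference between lists was not tested. Male-biased genes had 6 called in each direction, the lower ones including Mup4, Mup5, Mup6 and Cyp4a12b.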

How the data were processed

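The scanner files hold, per the file headers, spot intensities that the authors extracted with Agilent Feature Extraction 11.0.1.1. The processed intensity, already background-subtracted and dye-processed per the file headers, was used, with its detection marks. The series' deposited table of processed values equalled it on all 6 arrays. Whether the authors filtered spots further is not given in the sources used here. Control spots and outlier spots were left out and spots of one probe averaged. Log2 signals were scaled per array on the 75th percentile of the probes detected on all 6 arrays. limma 3.58.1 in R 4.3.3 was fitted to the 12331 genes detected on all 6 arrays, with mouse and input as factors. Same-numbered arrays come from the same liver, and their deviations correlated at 0.471, 0.254 and 0.606. On simulated data with 200 changed genes, the test of inputs recovered 89.5% of changes of 1 log2 unit and the test of mice 78.5%. The test of inputs also made 20 false calls and the test of mice 23. Signals were compared between mice and inputs only within a probe.

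The named genes were the markers, the 20 brightest, the 3 brightest of each list, missing hepatocyte genes, the 10 largest spans among mice, the 5 largest input differences in each direction and the 5 steadiest. Others were chosen after their values were seen. A few genes that the rule names are not reported here. The members, the 41 gene lists and the tests were chosen with earlier results of these data known. 1177 of 1208 listed genes had a probe. Symbols follow RefSeq on GRCm38.p6, which also gave the sequences. On 2-colour arrays, 2 with conflicting labels were not used. The alternatives were other scalings, normexp with quantile normalization, other filters, another probe per gene (chosen after the data were seen) and leaving out each mouse. The number of arrays limits the precision.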

Additional observations from a re-analysis of the deposited data

How the results depend on the processing

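The number of genes detected on all 6 arrays was 12331. It was 23064 when 1 array sufficed, and it was 17928 with the weaker mark, 17724 on the 1X arrays alone, 12584 on the 1.5X arrays alone and 9794 with the median probe of each gene. The number that differed among mice was 127. It was 204 with no scaling, 197 after normexp and quantile normalization, 41 among genes detected on both arrays of at least 1 mouse, 0 with no filter on dim probes, 0 among genes detected on all 3 arrays of at least 1 input, and 0 with input left out. These counts of 0 are from limma, beside 3289, 2545 and 427 genes with an unadjusted p under 0.05. Leaving out 1 mouse gave 47 to 711, the lowest without mouse 3 and the highest without mouse 2. Differences between mice therefore rest on the filter and on the modelled input effect, and the cause of the lost calls was not tested. The number that differed between inputs was 6120. It was 16760 with no filter and 9197 among genes detected on all 3 arrays of at least 1 input, and 4231 to 6325 with 1 mouse left out. Without the replicate block it was 4770. The share of detected probes differed by -15.6 percentage points and by -18.0 to -13.5 with 1 mouse left out. The input differences of 14 genes were recomputed under the alternatives. Only Cyp3a11 lost its call, with the median probe of each gene (0.15), and no gene so recomputed changed direction. Mup4 was not recomputed with the median probe, since that probe was well above background on 0 arrays. With the median probe, 34 of 41 list percentiles moved by more than the spread between mice, but the number detected moved over 1.5 times in 2 lists, female-biased genes and neurons, to 3 in each. At 1.5X input the higher background limits what dim probes can show.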

Other observations

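Several further genes with the order of the pancreas list, lowest in mouse 1 and highest in mouse 3, are known from intestinal epithelium; they were chosen after their values were seen. Akp3, an intestinal alkaline phosphatase, had 4.18, 4.45 and 5.50 at 1.5X and 4.11, 4.70 and 5.53 at 1X in mice 1, 2 and 3. Fcgbp, a protein of intestinal mucus, averaged 1.60, 2.26 and 3.26, and Tff3, a trefoil peptide of goblet cells, 1.43, 1.86 and 2.95. Lct, the brush border lactase, averaged -0.96, -0.19 and 0.77. All 4 passed the limma F-test, with adjusted p of 0.0259 to 0.0494, and none did without mouse 3, with adjusted p of 0.297 to 0.536 (limma). No list of intestinal genes was tested.

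Other hepatocyte genes also differed among the mice. Alas1, the rate-limiting enzyme of haem synthesis in liver, had -0.62, -1.59 and 0.54 at 1.5X and -0.67, -1.43 and 0.63 at 1X, with an adjusted p of 0.0130, and of 0.244 without mouse 3 (limma). F13b, the carrier subunit of coagulation factor XIII, was lowest in mouse 3, at -3.86 at 1.5X and -4.50 at 1X, with an adjusted p of 0.0494, and of 0.836 without mouse 3 (limma).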
